A study of Homo sapiens with 4 samples.

Results

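Box C/D-sized small nucleolar RNAs (snoRNAs) were examined in small RNA libraries from small extracellular vesicles, particles enclosed by membrane that cells shed. They were taken as all features that the deposited annotation types as snoRNA or guide_RNA, that have 1 interval of 50 to 110 nt in the count table, and whose raw counts sum to 10 or more over the 4 libraries. This rule found 61 of the 155642 features of the table, all 61 typed snoRNA. The rule used the summed counts, so the level at which a snoRNA enters is no finding, and the sum does not use which group a library belongs to. The vesicles came from HT29, an established human colon cancer line that carries a mutant p53. The 2 NTSH libraries were from HT29 cells with a non-targeting control sequence, and the 2 Shp53 libraries were from HT29 cells that express a p53 shRNA; p53 is a transcription factor and tumour suppressor. Cells of both groups were at passages 5 to 15, and both groups are 1 cell line. Inserts were selected at 18 to 40 nt, so every count on a snoRNA of 50 nt or more is of a fragment, which may differ in level from the intact RNA.

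Box C/D snoRNAs are short RNAs of the nucleolus that carry a conserved box C near the 5′ end and a box D near the 3′ end. With the proteins fibrillarin, NOP56, NOP58 and SNU13 they form a particle that adds a methyl group to the 2′ oxygen of a ribose in ribosomal RNA, at a position chosen by base pairing between the target and the bases upstream of box D. A few, such as the U14 family (SNORD14) and U13 (SNORD13), act in the processing or another modification of the ribosomal RNA precursor. In mammals most are cut out of introns of host genes, many of which encode ribosomal or nucleolar proteins.

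Of the 61 snoRNAs, 36 lay at a gene named SNORD, the symbol for box C/D snoRNAs, and 25 did not. GENCODE release 29, whose coordinates are on the GRCh38 build of the deposited table, held a transcript sequence for 46 of them. Box C was searched as TGATGA in the first 20 bases and box D as CTGA in the last 20 bases, on the strand of the feature only. Both were found in 27 of the 46 (58.7%), in 21 of the 33 at SNORD genes with a sequence (63.6%) and in 6 of the 13 others (46.2%). The same search found both in 199 of 410 snoRNA-typed features of this size that had no count (48.5%). In 4173 GENCODE genes of other small RNAs of this size it found box C in 0.312%, box D in 6.33% and both in 0. The name box C/D thus held for most of the 36 at SNORD genes. Of the 13 other snoRNAs with a sequence, 3 were closest to a gene of the H/ACA class, which guides pseudouridine formation: LOC124900397 shared a run of 27 bases with SNORA31, LOC124900437 one of 38 bases with SNORA44 and URS0000AA0C90 one of 18 bases with SNORA3A.

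The sequences below are those the results turn on. They are the HSPA8 pair with most counts over all libraries, the next most abundant guides, and SNORD57, SNORD69 and SNORD73A, whose libraries separated by group. Each is the GENCODE transcript, 5′ to 3′, with capitals marking the letters found as box C and box D. No capitals at an end mean only that the exact letters were not in that window.
SNORD14D: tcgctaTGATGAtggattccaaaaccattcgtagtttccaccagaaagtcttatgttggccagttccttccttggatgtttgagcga
SNORD14C: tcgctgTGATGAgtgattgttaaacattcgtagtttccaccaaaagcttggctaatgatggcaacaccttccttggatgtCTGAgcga
SNORD66: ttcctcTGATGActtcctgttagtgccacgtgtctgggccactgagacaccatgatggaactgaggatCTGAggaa
SNORD63: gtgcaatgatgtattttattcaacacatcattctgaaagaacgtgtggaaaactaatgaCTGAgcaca
SNORD21: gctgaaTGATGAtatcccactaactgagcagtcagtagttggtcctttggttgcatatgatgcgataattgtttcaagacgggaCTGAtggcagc
SNORD20: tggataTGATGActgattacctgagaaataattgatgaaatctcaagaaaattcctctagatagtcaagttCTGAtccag
SNORD57: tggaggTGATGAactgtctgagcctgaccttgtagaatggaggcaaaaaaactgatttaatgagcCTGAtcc
SNORD69: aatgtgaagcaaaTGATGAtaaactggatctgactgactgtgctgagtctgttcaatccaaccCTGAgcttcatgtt
SNORD73A: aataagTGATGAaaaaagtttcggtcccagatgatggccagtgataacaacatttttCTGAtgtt

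Library totals were 1099694 and 938754 counts in NTSH replicates 1 and 2 and 2611032 and 1940942 in Shp53 replicates 1 and 2. Features over ribosomal RNA genes held between 74.7% and 77.2% of them. NTSH replicate 1 stood apart: its factor from TMM, the trimmed mean of M-values that scales libraries to one another, was 0.637, against 1.12 to 1.25 in the other 3. Whether replicates were separate cultures is not stated in the labels, so a p-value here reflects the spread between these samples alone, and that spread may be technical.

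The table could show only some box C/D genes. Of the 1048 single-interval snoRNA features of this size, 316 had no base outside other annotated features on either strand, and 0 of these had a count. Of the 732 with bases of their own, 170 had a count and 61 reached 10. Counted as genes, the table held 304 SNORD genes of this size. At least 18 own bases, the shortest insert, were left to 114 of them, 59 had a count and 36 reached the rule. This cut was not a strict limit. Of 114 features of this size with some own bases but fewer than 18, 1 had a count, on 10 own bases. All bases were their own in 60 of the 61 snoRNAs. SNORD48 was the exception, with 25 own bases of 64, so its 123 counts come from part of it.

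**Figure D1:**
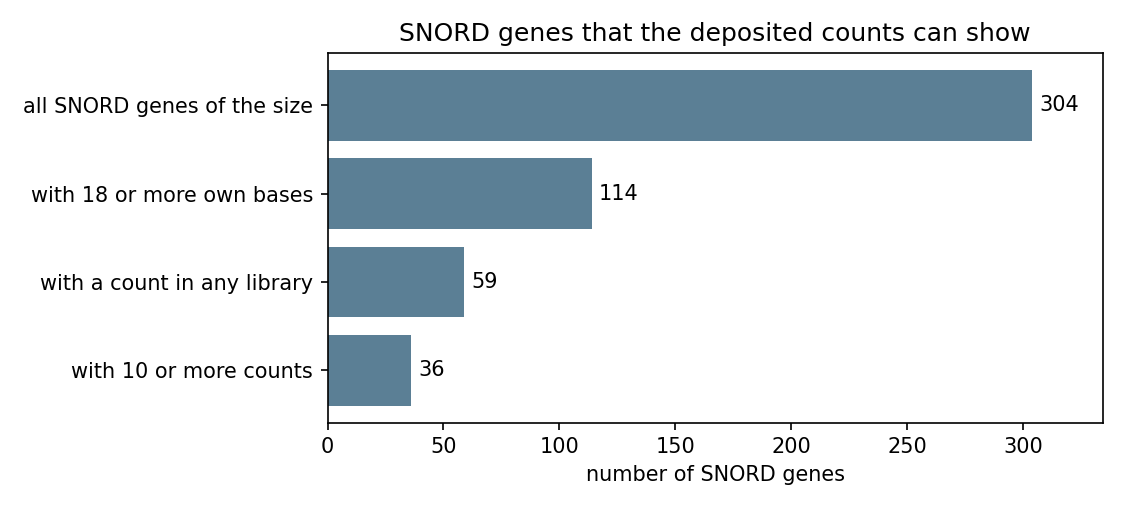
Number of SNORD genes of 50 to 110 nt in the count table (x axis) at each step from the table to the rule. Of 304 genes, 114 kept 18 or more bases outside other features, 59 had a count and 36 had 10 or more counts.

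Hosts were found by position in GENCODE 29. Of the 36 snoRNAs at SNORD genes, 34 lay within a gene on the same strand, 33 of them in a protein-coding gene. A host named as a ribosomal protein gene (RPL or RPS) was found for 8 of the 36. Of the 25 others, 18 had no host on their strand. Counts on the 36 ran from 16 to 14508 per snoRNA over the 4 libraries, with a median of 236, and on the 25 others from 11 to 329, with a median of 44. The 36 had a median length of 76.5 nt and a median GC content of 44.4%, against 90 nt and 41.8% for the others, over the 33 and 13 with a sequence. Exonic in at least 1 transcript of the host were 10 snoRNAs with 27807 counts, and 7 more with 6759 counts were exonic in retained-intron transcripts alone. Of the 27807 counts, 24896 were on SNORD14D and SNORD14C, both exonic in at least 1 transcript of HSPA8. Purely intronic were 24 with 9265 counts, and 20 with 1625 counts lay in no gene on their strand.

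A single locus held most of the counts summed over the 4 libraries, though only 21.5% in NTSH replicate 2. SNORD14D (chr11:123058909-123058995, minus strand, GRCh38) and SNORD14C (chr11:123059335-123059422, minus strand) lie in HSPA8, which encodes a constitutive heat shock protein of the HSP70 family, and both belong to the U14 family needed for making 18S ribosomal RNA. SNORD14D had 4589 and 533 counts in NTSH replicates 1 and 2 and 6108 and 3278 in the Shp53 replicates. SNORD14C had 1930 and 288 against 5648 and 2522. The low library was NTSH replicate 2 for both, and the high one in share of library counts was NTSH replicate 1 for SNORD14D and Shp53 replicate 1 for SNORD14C, so the groups overlapped.

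As a share of all counts on the 61 snoRNAs, the pair held 58.3% and 21.5% in the NTSH replicates and 56.8% and 59.6% in the Shp53 replicates. Their transcripts were 79.3% identical. The longest run of bases in common was 18 nt, as long as the shortest insert: cattcgtagtttccacca at bases 25 to 42 of SNORD14C and 26 to 43 of SNORD14D, counted from the 5′ end. An insert longer than that run holds at least 1 difference between them. The third U14 gene of HSPA8, SNORD14E, had too few own bases for a read. SNORD14C shared a run of 20 nt with SNORD14E and with SNORD14B, which had 0 own bases and 0 counts. An insert within such a run could come from either gene.

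The TMM-normalised level in CPM, which puts the libraries on 1 scale, per 100 own bases and averaged over the 4 libraries, gave their order. SNORD14D stood at 3128 and SNORD14C at 1770. SNORD66, SNORD63, SNORD57, SNORD20 and SNORD21 followed at 728, 698, 536, 514 and 439. SNORD83A and SNORD102 were at 192 and 191, and SNORD53B and SNORD69 at 117 and 113. The 12 with the highest mean CPM held between 86.2% and 90.1% of the counts on the 61 in each library.

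**Figure D2:**
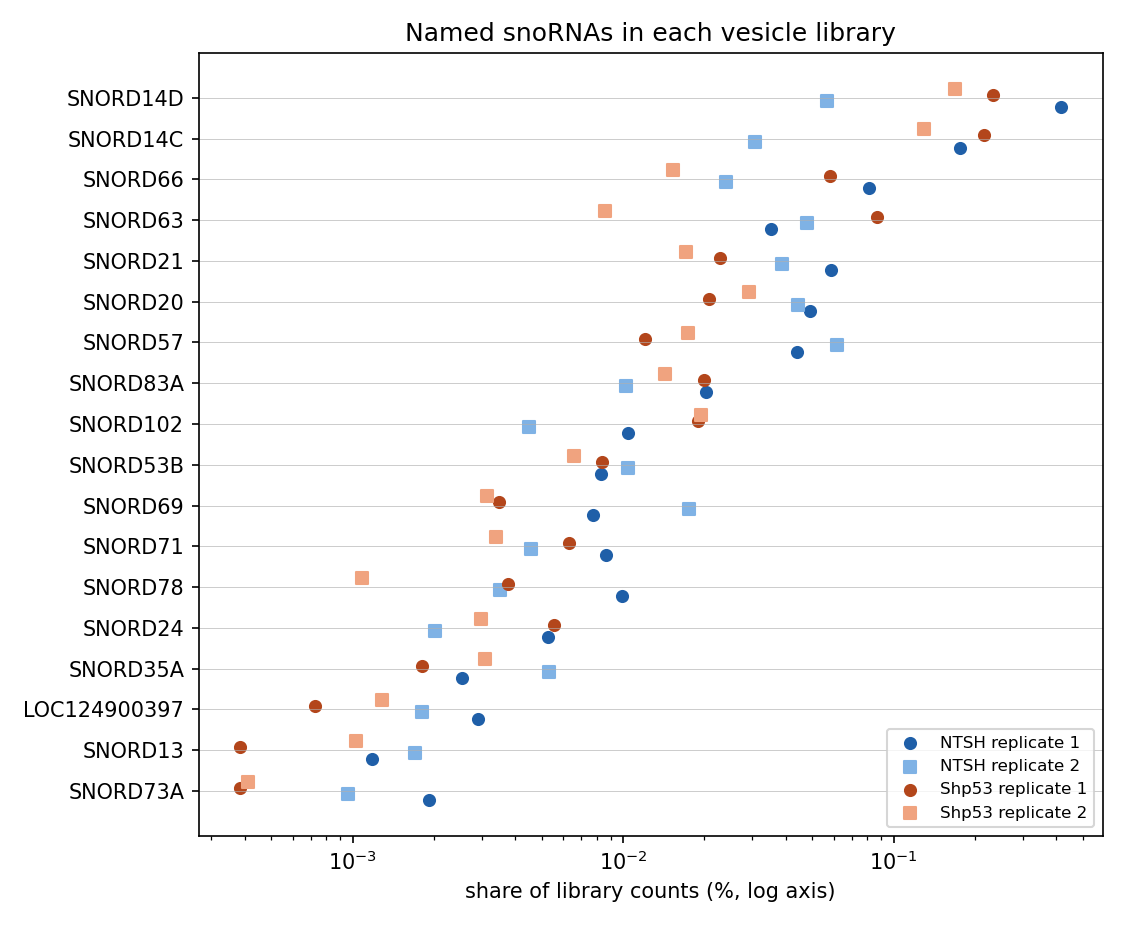
Share of all library counts (x axis, percent, log scale) of the 18 snoRNAs named by rule, 1 point per library, with NTSH in blue and Shp53 in red and replicate 2 in the lighter shade. SNORD14D runs from 0.0568% in NTSH replicate 2 to 0.417% in NTSH replicate 1, while for SNORD57 both Shp53 points lie left of both NTSH points.

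The first comparison is of all 61 snoRNAs in vesicles of cells with and without p53 shRNA. Together they held 1.02% of the counts of NTSH replicate 1 (95% Wilson interval 0.999% to 1.04%) and 0.407% of NTSH replicate 2 (0.395% to 0.420%). In Shp53 replicates 1 and 2 they held 0.793% (0.783% to 0.804%) and 0.502% (0.492% to 0.512%). The intervals treat each read as an independent draw and leave out the spread between libraries. PCR reads are not independent molecules, so the intervals are too narrow even for counting error. Both Shp53 libraries lay between the NTSH libraries. The means were 0.712% ± 0.431 (SD, n = 2) in NTSH and 0.647% ± 0.206 (SD, n = 2) in Shp53, with a two-sided exact permutation p of 1.0, and 2 libraries against 2 cannot give a p below 0.333. In bulk vesicle RNA, fewer vesicles with a snoRNA and less of it per vesicle cannot be told apart.

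The HSPA8 pair carried much of the gap between the NTSH libraries. It held 0.593% and 0.0875% of counts in NTSH replicates 1 and 2 and 0.450% and 0.299% in the Shp53 replicates. The other 59 held 0.424% and 0.320% in NTSH and 0.343% and 0.203% in Shp53, or 0.372% ± 0.0740 (SD, n = 2) against 0.273% ± 0.0991 (SD, n = 2), with an exact permutation p of 0.667. These groups overlap too. The 25 snoRNAs not at a SNORD gene held 0.0306% and 0.0188% in NTSH and 0.0319% and 0.0176% in Shp53.

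**Figure D3:**
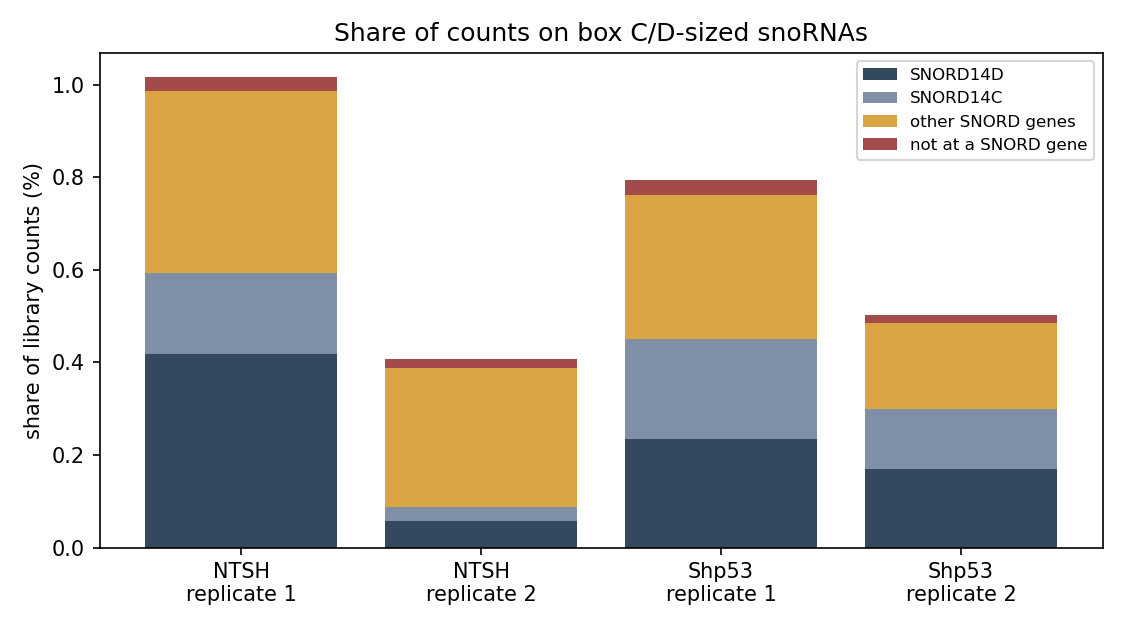
Share of all library counts (y axis, percent) held by the 61 snoRNAs, 1 bar per library, split into SNORD14D, SNORD14C, other SNORD genes and snoRNAs not at a SNORD gene. The whole bars are 1.02% and 0.407% in NTSH and 0.793% and 0.502% in Shp53, and the bar of NTSH replicate 2 has the smallest SNORD14 part.

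Single snoRNAs were compared with edgeR's quasi-likelihood test over all features that passed its filter on low counts, with Benjamini-Hochberg adjustment over all of them. Of the 61, 43 passed and 18 did not. At an adjusted p under 0.05, 0 of the 43 were higher and 0 lower, and among all 2780 features tested the share called was 0% in each direction. DESeq2's Wald test called 0% of features higher and 1.04% lower, and 0 of the 43, and limma voom called 0% in each direction and 0 of the 43. The smallest edgeR adjusted p among the 43 was 0.273, for SNORD73A. At an unadjusted p under 0.05, edgeR gave 0 higher and 1 lower of the 43 (2.33%), against 4.35% higher and 7.81% lower of all features. DESeq2 gave 0 higher and 3 lower, against 3.78% and 7.59% of all features, and limma voom 0 and 3, against 2.84% and 7.99%.

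On the TMM scale with all 4 libraries, most fitted changes of the 43 were negative. The log2 change, Shp53 over NTSH on the TMM scale, was below 0 for 34 of the 43 (79.1%) and above 0 for 9, against 48.6% of all features below 0 and 51.4% above. Its median was -0.78 over the 43 and 0.05 over all features. Scaling by library totals alone moved the median of all features by more than 0.1, to 0.49, and that of the 43 to -0.17. Of the 43, 26 were then below 0 and 17 above, and of all features 948 and 1832. Without NTSH replicate 1, 24 were below 0 and 23 above of the 47 then tested. Over all 5398 features of that fit, 2198 were below and 3200 above. When all 61 were fitted unfiltered 23 were below and 38 above, against 14312 below and 31778 above of all 46090 features. The standard error (SE) beside each change is that of the difference in mean log2 CPM between the groups, not of edgeR's fitted change. It was larger than the size of the fitted change for 22 of the 43.

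Libraries of a group differed widely, and in the same sense for most of these snoRNAs. NTSH replicate 1 lay above NTSH replicate 2 in CPM for 41 of the 43, and Shp53 replicate 1 above Shp53 replicate 2 for 29. In raw share of library counts, NTSH replicate 1 was above replicate 2 for 49 of the 61. The same counts over all features are not given here, so these show no trait particular to the snoRNAs. Without overlap between the groups in CPM were 13 lower in Shp53 (30.2%), against 18.6% of all features, and 0 higher, against 22.9%. The other 30 overlapped. In raw share, which needs no scaling, 15 of the 61 were lower without overlap (24.6%), against 11.9% of the 10776 features with 10 or more counts, and 8 were higher (13.1%), against 33.1%. The Shp53 libraries were deeper and so weigh more in the summed counts of the rule. Of the 8, 4 had at most 1 count in the NTSH libraries and reached the rule through Shp53, so they had to differ.

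**Figure D4:**
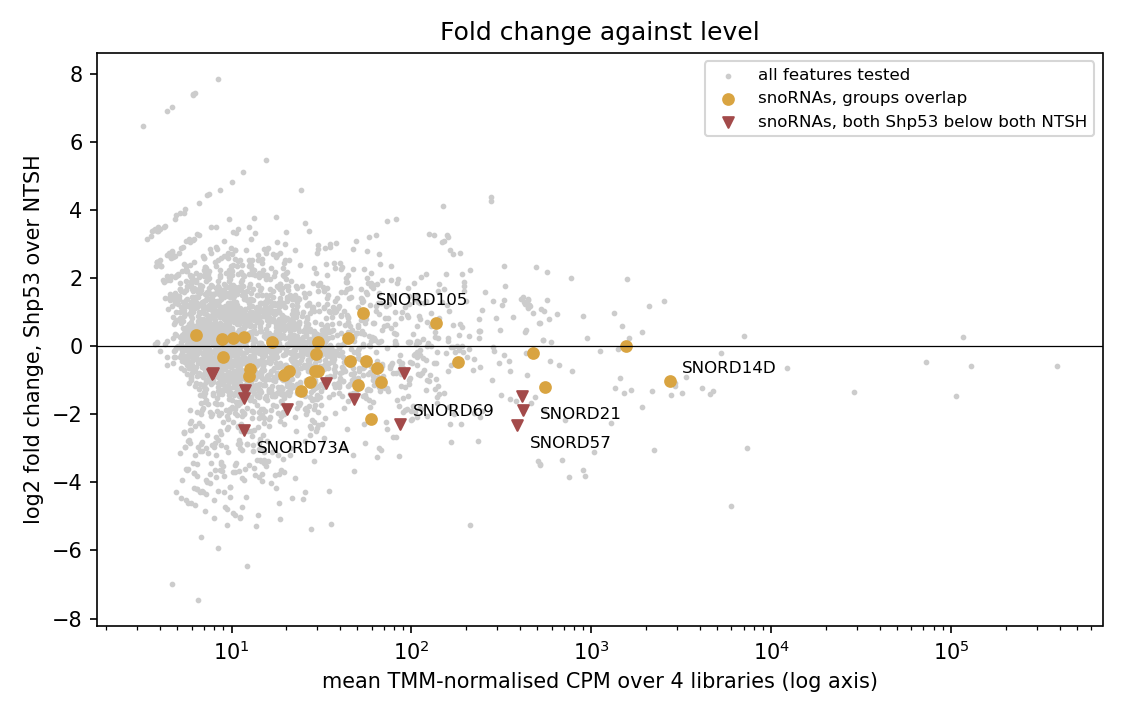
Log2 change, Shp53 over NTSH (y axis), against the mean CPM over 4 libraries (x axis, log scale) for all 2780 features tested (grey) and the 43 snoRNAs (coloured). Red triangles are the 13 with both Shp53 libraries below both NTSH libraries, and 34 of the 43 lie below 0.

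Guides of 18S ribosomal RNA were the largest group by counts, through 1 locus. Of their 32474 counts, 24896 were on the SNORD14 pair, which is also on the processing list. The rest were fewer than the 8227 counts of the 28S guides. The table held 32 genes of the 18S list at this size, 11 of them with own bases for a read, and these 11 are among the 61. Of the 8 tested, 7 were below 0 and 1 above, 2 were lower without overlap, 0 passed the adjusted threshold, and the median log2 change was -0.74. Among all features tested, 48.6% were below 0 and 18.6% lower without overlap, and among the 43 snoRNAs 79.1% and 30.2%. As a share of library counts the list held 0.780% and 0.223% in NTSH and 0.552% and 0.380% in Shp53, which overlap.

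SNORD57 (chr20:2656939-2657010, plus strand), a guide of 18S methylation, lies in NOP56, which encodes a core protein of the box C/D particle. It had 712 and 575 CPM in NTSH replicates 1 and 2 and 112 and 144 in the Shp53 replicates. Both Shp53 libraries were far below both NTSH libraries, and each pair was close. The means were 643 ± 97.6 (SD, n = 2) and 128 ± 22.6 (SD, n = 2), a log2 change of -2.33 (SE 0.24), which missed the threshold in edgeR's test (unadjusted p = 0.0696, adjusted p = 0.452). Its raw shares, 0.0439% and 0.0618% against 0.0120% and 0.0173%, were in the same order.

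SNORD20 (chr2:231456444-231456523, minus strand), another 18S guide, lies in an intron of NCL, the gene of nucleolin, a protein of the nucleolus. It had 797 and 411 CPM in NTSH and 194 and 243 in Shp53. The groups did not overlap, and the log2 change was -1.47 (SE 0.50, edgeR adjusted p = 0.678). SNORD66 (chr3:184325696-184325771, plus strand), in an intron of the translation initiation factor gene EIF4G1, did overlap. It had 1320 and 223 CPM in NTSH and 543 and 128 in Shp53, so replicate 1 was the high library of each group, and its log2 change was -1.20 (SE 1.65).

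SNORD14D and SNORD14C, also on this list, had changes of -1.02 (SE 1.87) and -0.01 (SE 1.72), with 6769 and 528 CPM of SNORD14D in NTSH against 2182 and 1406 in Shp53. SNORD105 (chr19:10107651-10107735, plus strand), in the ribosome biogenesis gene PPAN, was the 1 above 0. It had 60.5 and 12.9 CPM in NTSH and 42.9 and 99.1 in Shp53, which overlap, a log2 change of 0.96 (SE 1.22, edgeR adjusted p = 0.795). Its raw shares were higher in Shp53 without overlap, at 0.00373% and 0.00138% against 0.00460% and 0.0119%. SNORD59A, SNORD56 and SNORD98, with 34, 17 and 16 counts in all, were not tested.

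Guides of 28S ribosomal RNA had more members but fewer counts. The table held 56 genes of this list at this size, 15 with own bases for a read and 13 with a count, of which 12 are among the 61 and SNORD58C had 2 counts. All 12 were tested: 11 were below 0 and 1 above, 3 were lower without overlap, 0 passed the adjusted threshold and the median was -0.97. The shares over all features tested were 48.6% below 0 and 18.6% lower without overlap, and over the 43 snoRNAs 79.1% and 30.2%. The list held 0.149% and 0.129% of library counts in NTSH and 0.157% and 0.0658% in Shp53, which overlap.

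SNORD69 (chr3:52692736-52692812, plus strand), a guide of 28S methylation, lies in an intron of GNL3, which encodes nucleostemin. It had 125 and 162 CPM in NTSH and 32.5 and 26.2 in Shp53. Both Shp53 libraries were below both NTSH libraries, and each pair was close. The log2 change was -2.29 (SE 0.24), with an edgeR unadjusted p of 0.0595 and an adjusted p of 0.431. SNORD21 (chr1:92837289-92837383, plus strand) lies in the ribosomal protein gene RPL5 and opposite FAM69A. It had 953 and 360 CPM in NTSH and 213 and 142 in Shp53, also without overlap, a change of -1.89 (SE 0.76, edgeR adjusted p = 0.572). No source used here says whether counting was by strand, so reads of an opposite gene could be counted here too.

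SNORD63 (chr5:138561043-138561110, minus strand), in HSPA9, the gene of the mitochondrial HSP70 protein, varied widely within Shp53. It had 574 and 444 CPM in NTSH and 809 and 71.6 in Shp53. The Shp53 libraries were its highest and its lowest, and its log2 change was -0.21 (SE 1.75). SNORD102 (chr13:27255064-27255135, plus strand), in RPL21, was the 28S guide above 0. It had 170 and 41.6 CPM in NTSH and 176 and 162 in Shp53, a change of 0.68 (SE 1.0, edgeR adjusted p = 0.878), and NTSH replicate 2 was its low library. In raw share, 0.0105% and 0.00447% against 0.0189% and 0.0195%, its Shp53 libraries were higher without overlap.

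SNORD35A (chr19:49491175-49491260, plus strand) was the 1 of the 4 snoRNAs of RPL13A that had own bases for a read. It had 41.3 and 49.5 CPM in NTSH and 16.8 and 25.7 in Shp53, without overlap, a change of -1.09 (SE 0.32, edgeR adjusted p = 0.708). Its raw shares overlapped. SNORD24 (chr9:133349396-133349470, plus strand) was the 1 of 4 in RPL7A, with 85.6 and 18.8 CPM in NTSH and 51.8 and 24.9 in Shp53, which overlap (log2 change -0.44, SE 1.18). SNORD78 (chr1:173865622-173865686, minus strand) was the 1 of 10 in GAS5, a non-coding host gene whose introns hold a row of snoRNAs. It had 161 and 32.7 CPM in NTSH and 35.0 and 9.01 in Shp53, so NTSH replicate 2 lay just below Shp53 replicate 1, and its change was -2.13 (SE 1.45, edgeR adjusted p = 0.532).

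The remaining roles had few members. SNORD71 (chr16:71758402-71758487, minus strand, in AP1G1) was the only guide of 5.8S ribosomal RNA with own bases for a read. It had 140 and 42.6 CPM in NTSH and 59.0 and 28.3 in Shp53, which overlap, a change of -1.06 (SE 0.99). The list for processing of the ribosomal RNA precursor held the U14 pair and SNORD13. SNORD13 (chr8:33513475-33513578, plus strand), which has no host on its strand and lies opposite TTI2, had 19.2 and 15.9 CPM in NTSH and 3.57 and 8.58 in Shp53. Its groups did not overlap, with a change of -1.52 (SE 0.54, edgeR adjusted p = 0.529), on 59 counts in all. The 3 guides of U6, the spliceosomal RNA, in the table had no own bases for a read and 0 counts.

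SNORD73A (chr4:151103827-151103891, plus strand), in the ribosomal protein gene RPS3A and opposite SH3D19, had the smallest p of the 43. It had 31.0 and 8.92 CPM in NTSH and 3.57 and 3.43 in Shp53, from 21, 9, 10 and 8 counts. The groups did not overlap, but the NTSH libraries differed by more than NTSH replicate 2 differed from Shp53. The log2 change was -2.46 (SE 0.84, edgeR unadjusted p = 0.0225, adjusted p = 0.273). SNORD83A (chr22:39315213-39315307, minus strand), in RPL3, had 223 and 96 counts in NTSH and 520 and 277 in Shp53, and its CPM overlapped (log2 change -0.48, SE 0.94).

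Some host genes carried more than 1 of the 61, which allows snoRNAs of a shared host transcript to be set side by side. In NOP56, SNORD57 had 1713 counts over the 4 libraries, SNORD110 had 54 and SNORD56 had 17. SNORD110 (log2 change -0.31, SE 1.0) had 11, 4, 14 and 25 counts in NTSH replicates 1 and 2 and Shp53 replicates 1 and 2, and its CPM overlapped. SNORD56 had 7, 2, 5 and 3 counts in that order, or 10.3 and 1.98 CPM in NTSH and 1.79 and 1.29 in Shp53, without overlap like SNORD57, on too few counts to be tested. The differences between the 3 were not tested.

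WDR43, a ribosome biogenesis gene, holds SNORD53B (chr2:28927983-28928060, plus strand) and SNORD53 (chr2:28927067-28927144, plus strand), which were 81.5% identical with a longest common run of 21 nt. SNORD53B had 134 and 97.1 CPM in NTSH and 78.2 and 54.9 in Shp53, without overlap (log2 change -0.80, SE 0.34), while its raw shares overlapped. SNORD53 had 102 and 36.7 CPM in NTSH and 51.1 and 11.6 in Shp53, with overlap (log2 change -1.14, SE 1.25). In DDX39B, a gene of an RNA helicase, SNORD84 and SNORD117 had 372 and 76 counts and log2 changes of -0.65 (SE 1.26) and -0.66 (SE 0.46). NOP58, which encodes another core box C/D protein, holds SNORD11 and SNORD70, with 20 and 17 counts, too few to be tested.

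Leaving out 1 library moved many of these changes across 0. Of the 43, 40 had a value in all 4 fits that each leave out 1 library, and 3 did not pass the filter in some of them. Of the 40, 22 kept 1 sign in these fits and in that of all libraries: 20 below 0 and 2 above, SNORD102 and SNORD105. The matching count over all features is not given here, so this split shows no trait particular to the snoRNAs. The 20 include 11 of the 13 without overlap in CPM, whose sign that lack of overlap already fixes in part, and the other 2 lacked a value in some fits. SNORD57 ranged from -2.33 to -2.04, SNORD69 from -2.61 to -1.93, SNORD20 from -1.72 to -1.04 and SNORD73A from -2.99 to -1.47. SNORD14D reached 1.61 and SNORD14C 2.28 without NTSH replicate 1, and SNORD63 ranged from -2.71 to 0.92. No value passed the adjusted threshold in any of these fits.

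**Figure D5:**
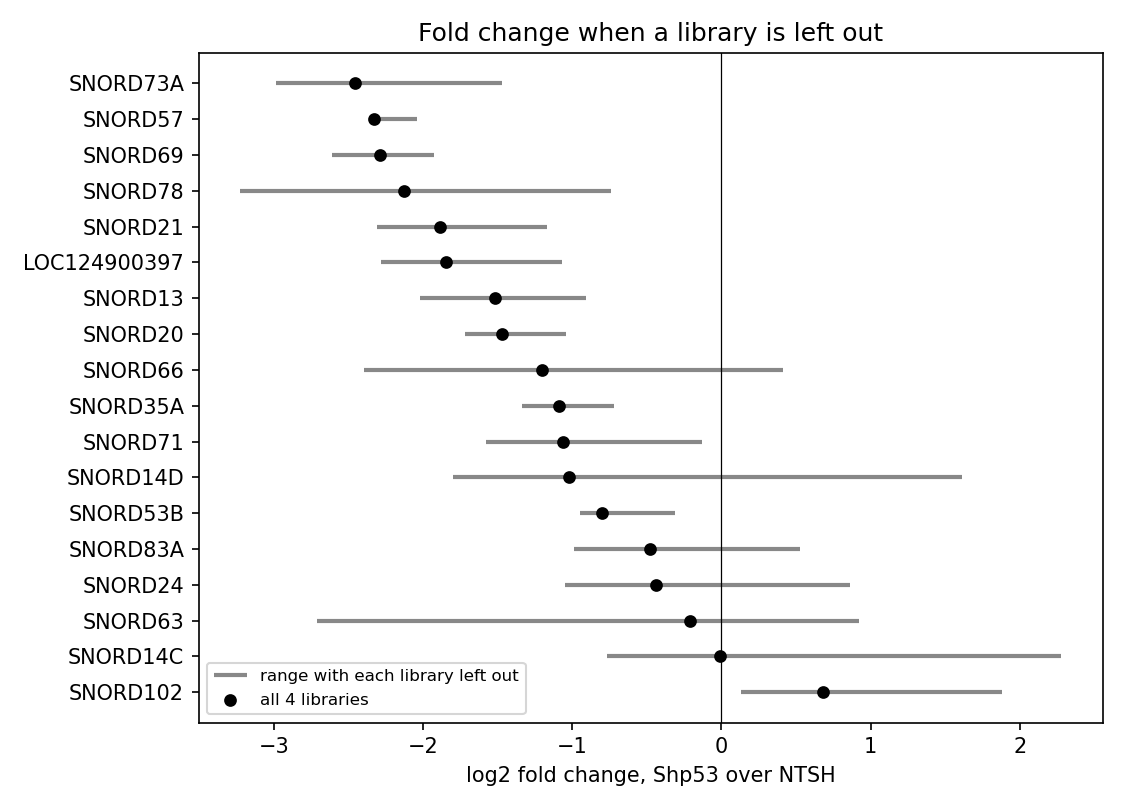
Log2 change, Shp53 over NTSH (x axis), of the 18 snoRNAs named by rule. Points are fits of all 4 libraries and lines span the 4 fits that each leave out 1 library: SNORD57 stays between -2.33 and -2.04, while SNORD14D spans -1.80 to 1.61.

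The 25 snoRNAs not at a SNORD gene include copies of box C/D genes. Of the 13 with a sequence, 8 were 85.1% to 91.2% identical to a SNORD gene, 3 were closest to H/ACA genes, at 63.4% (LOC124900397), 66.2% (URS0000AA0C90) and 71.6% (LOC124900437), and 2 were closest to SNORD26, at 61.6% (LOC124900422) and 60.5% (LOC124900235). In 6 of the 8 the longest run in common with a named gene was 18 nt or more, so a short fragment could come from either. The copy of SNORD14B is shown because SNORD14B itself had no own bases and 0 counts.
URS0000817DE1: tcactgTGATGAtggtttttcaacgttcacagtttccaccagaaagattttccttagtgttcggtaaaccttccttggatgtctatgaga

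URS0000817DE1 (chr2:24969388-24969477, minus strand), named by its RNAcentral identifier, lies in DNAJC27 and was 91.2% identical to SNORD14B, with a common run of 22 nt. It had 12 and 4 counts in NTSH and 50 and 17 in Shp53, and its CPM overlapped (log2 change 0.26, SE 1.11). LOC124900397 (chr17:19662000-19662090, plus strand), the H/ACA-like feature in an intron of ALDH3A2, had 47.2 and 16.8 CPM in NTSH and 6.79 and 10.7 in Shp53, without overlap (log2 change -1.85, SE 0.77, edgeR adjusted p = 0.479).

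Imprinted snoRNA clusters, which are known from brain and mark other tissues, were near 0. At 15q11 the table held 66 genes of this size, 28 with own bases for a read, and 8 of them had 12 counts in all over the 4 libraries, all on SNORD115 genes. Own bases go by position and do not tell whether a read also matches another gene of the cluster. How such reads were counted is not given. At 14q32 it held 41, of which 1 had own bases for a read, with 0 counts. None of either cluster is among the 61. The snoRNA sets in SNHG1, RPL4 and RACK1 had 0 counts, with 0 genes that had own bases for a read out of 7, 4 and 2. The set in RPL17 had only the 2 counts of SNORD58C.

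At the edge of the rule, LOC124901540, LOC124903784 and LOC124904383 had 11 counts and are among the 61, and none had exactly 10. Just outside it, LOC124903608, LOC124902339, LOC124903127, LOC124903603 and URS0000AA9C41 had 9 counts, and LOC124900891, SNORD31B and LOC124904985 had 8.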

How the data were processed

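Small RNA of HT29 vesicles was measured in 2 NTSH and 2 Shp53 libraries. The authors deposited counts, whole numbers of reads per annotated feature that are not normalized, with an annotation giving RNAcentral identifiers and types. The submitters' processing notes list Subread 1.6.3, BWA 0.7.17 and bcl2fastq 2.19, and name GRCh38 as the build. The counting options are not given in the sources used here. Own bases are those no other feature covers, strand ignored. Names, hosts and sequences came from GENCODE 29 by position, and from the RefSeq gene table where GENCODE gave no name.

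Counts were fitted without a block with edgeR 4.0.16 (TMM, filterByExpr, quasi-likelihood, Benjamini-Hochberg adjustment at 0.05, in R 4.3.3). The fit was also run on simulated counts, with a pass mark only for large changes at a low spread between replicates. That run does not show how many changes the fit can find at the spread of these libraries. SEs are those of the difference in mean log2 CPM with a prior count of 2, not of edgeR's fitted change beside which they stand. Shares were compared by exact permutation tests, adjusted over the 9 compared. Alternatives used DESeq2 1.42.0, limma 3.58.1, other scalings and filters, a replicate block and each library left out.

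The rule for named snoRNAs takes the 12 with the highest mean CPM, up to 6 per direction with the smallest p, no overlap and a mean of 10 CPM or more in the group with the higher level (none higher qualified), up to 3 per list, and those at the edge of the count rule. Other snoRNAs named with values (host partners, SNORD48, SNORD105 and 1 copy) were picked with their values in view. The 61 snoRNAs and the lists were chosen with earlier results of these data known. The p53 knockdown itself was not analysed here. One sequence and its result are not reported here.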

Additional observations from a re-analysis of the deposited data

How the results depend on the processing

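Counts per snoRNA ran from 11 to 14508, and 18 of the 61 had too few to be tested. No snoRNA among the 61 passed the adjusted threshold under any alternative. Over all features, the replicate block called 12 higher and 91 lower and the fit without ribosomal features 1 and 27. The labels do not say what same-numbered replicates share, and 2 pairs, whose deviations correlated at 0.395, are too few to show a pairing. At an unadjusted p under 0.05, 4 were higher with no filter on low counts and 0 to 3 with each library left out. Lower were 2 with the replicate block, 3 with DESeq2's Wald test, 3 with limma voom, 0 with library totals, 0 at a mean CPM of 10 or more, and 0 to 3 with each library left out. The median log2 change became 0.12 over all 61 with no filter, where that of all features was 1.38. It ranged from -1.06 (without NTSH replicate 2) to -0.13 (without NTSH replicate 1) with each library left out. The medians of all features in those fits were 0.45 and 0.46.

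The log2 ratio of the share of the 61, -0.14, became 0.46 (exact permutation p = 0.667) with snoRNA-typed counts as the denominator and ranged from -0.65 to 0.67 with each library left out. For the 18S guides it was -0.10 with all counts and 0.15 with counts of the 61 as the denominator. With each library left out it ranged from -0.74 to 1.07 for 18S guides, -1.08 to 0.18 for 28S guides, -0.96 to 0.09 for SNORD71, -0.66 to 2.07 for the processing list, -0.30 to 1.08 for SNORD24 and -0.66 to 2.10 for the HSPA8 pair. It stayed below 0 for SNORD78 (-2.63 to -0.54) and SNORD35A (-1.13 to -0.06). Of 215 log2 changes of the 18 named and tested snoRNAs under alternatives, 190 kept their sign and 25, in 7 snoRNAs (SNORD14D, SNORD14C, SNORD66, SNORD63, SNORD83A, SNORD53B and SNORD24), did not. The cause was not tested.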

Other observations

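The balance within the HSPA8 pair was looked at after its values were seen. SNORD14C had 0.421 and 0.540 counts per count of SNORD14D in NTSH replicates 1 and 2 and 0.925 and 0.769 in Shp53 replicates 1 and 2. Both Shp53 libraries were above both NTSH libraries, with means of 0.481 ± 0.0847 (SD, n = 2) and 0.847 ± 0.110 (SD, n = 2). The exact permutation p of 0.333 is the smallest that 2 libraries against 2 can give. The ratio needs no scaling between libraries, and NTSH replicate 2, whose SNORD14 counts were lowest, lay near NTSH replicate 1 in it. Fragments within runs of bases that SNORD14C shares with SNORD14B, SNORD14D or SNORD14E could enter the ratio from any of these genes. Among all snoRNA-typed counts, the 61 held 32.1% and 28.3% in NTSH and 31.4% and 51.4% in Shp53.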
